A study of Anser cygnoides with 12 samples.

Results

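The addition of lactulose to a higher protein diet was examined in the ileum of Yangzhou geese, where the small intestine ends. The lactulose group (LS1 to LS4) was fed a diet with 21% crude protein and 0.3% lactulose. It was set against the high protein group (MG1 to MG4), which was fed the diet with 21% crude protein alone. The libraries were chosen by their diet label, and these 2 groups make up 8 of the 12 libraries of the study. A control group (CG1 to CG4), fed a basal diet with 18% crude protein, is given beside them. All groups are one breed and one tissue. The age of the geese, their sex, the time on the diet and whether each library is a separate bird are stated nowhere in the labels. The p-values therefore measure spread between libraries alone, which may be technical. The study names gut health and uric acid metabolism as its questions.

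Lactulose is a synthetic sugar made of galactose and fructose. The small intestine does not digest it, and bacteria further down ferment it to short-chain fatty acids, which lower the pH of the gut content and draw nitrogen into bacterial growth. The ileum takes up what the upper intestine leaves, reclaims bile acids, and holds a dense population of macrophages and T cells beneath its epithelium. Birds excrete surplus nitrogen as uric acid, made from purines by xanthine dehydrogenase, so dietary protein bears on urate as well as on the gut.

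Poly(A) RNA was sequenced in each library, and total counts ranged from 38706155 to 48251825. Levels are the authors' deposited FPKM, a count scaled to transcript length and library size, given in the order LS1 to LS4, MG1 to MG4 and CG1 to CG4. All 12 libraries held the bile acid transporter SLC10A2 (6.84 to 146 FPKM) and the ileal bile acid binding protein FABP6 (621 to 3490.5 FPKM). Their presence goes with the label of ileum but does not show 1 position along the gut. MG1 also held genes of the upper intestine. GATA4 was at 4.07 FPKM there, against 0 to 0.070 FPKM in the other high protein libraries. RBP2 was at 45.3 FPKM, against 0.754 to 4.01 FPKM. LS2 and LS3 were nearly alike. Their counts correlated at 0.996 across genes, and their squared difference per count was 7.08, against 27.2 to 209.9 for the 17 other pairs within groups and about 4 for the noise of read pairs. For genes with a mean count above 10000 it was 38.9, above that noise, against 318 to 3090 in the other pairs. This excess does not show that LS2 and LS3 come from separate birds. The main fit counts them as separate libraries, and the edgeR and DESeq2 tests were repeated with the 2 averaged as 1 library. Overlap of the groups, summed FPKM and centred levels were taken only with the 2 kept separate. The 2 genes LOC106036306 and LOC125179692, picked out after their values were seen, stood between 3.35 and 5.18 FPKM in LS1, LS4, MG1, MG3, CG3 and CG4 and at no more than 0.448 FPKM in the other 6 libraries. Each diet therefore holds 2 libraries of either kind, and LS2 and LS3 fall on the same side.

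The clearest differences between lactulose and high protein lay in a small set of genes. HAAO of tryptophan breakdown, the lipase CEL with its neighbour GTF3C5, SVIP, and the immune genes C1QA, CD4, SPI1 and CCL20 were lower. NMRAL1, ASAP3 and CCAR2 were higher. Ribosomal protein genes were lower and immediate early genes higher as groups, with no member called by edgeR or DESeq2 on all 12 libraries. edgeR's quasi-likelihood test, fitted to all 12 libraries and adjusted over 16075 genes, called none of these and 0 genes in all at an adjusted p under 0.05 (0.0% of those tested), with 372 genes higher and 536 lower at an unadjusted p under 0.05 (2.31% and 3.33%, and 5.65% in either direction). DESeq2, run on the same counts, called 18 genes (0.112%), 9 higher and 9 lower with lactulose (0.0561% each way). Of these, 15 carry a symbol, and all 15 are described here. With LS2 and LS3 averaged, edgeR again called 0, with 534 at an unadjusted p under 0.05 (3.28%, with 1.47% higher and 1.81% lower). DESeq2 then called 9 (0.0554%, with 0.0308% higher and 0.0246% lower), of which 8 were among its 18. The 8 included HAAO, CEL, C1QA, SVIP, NMRAL1 and ASAP3, while GTF3C5, CD4, SPI1, CCL20 and CCAR2 were no longer called. On the 8 libraries of the comparison alone edgeR called 0, with 1633 at an unadjusted p under 0.05 (10.4%, with 3.58% higher and 6.79% lower). DESeq2 called 267 there (1.88%, with 0.563% higher and 1.32% lower), and 31 with LS2 and LS3 averaged (0.195%, with 0.0503% higher and 0.145% lower). limma voom with weights per library called 123 (0.765%, with 0.162% higher and 0.603% lower).

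Fold changes are log2 values of lactulose over high protein, fitted by edgeR and given with their standard error. Over all genes tested the median was 0.02, 52.8% were positive and 47.2% negative, and the middle 50% of values lay between −0.17 and 0.21. The groups did not overlap in 391 genes higher and 596 lower with lactulose on CPM scaled by TMM, edgeR's correction for library composition (2.43% and 3.71%). On the deposited FPKM they did not overlap in 757 higher and 288 lower genes (4.71% and 1.79%), so the balance of directions depends on the scaling. In the account of single genes, overlap is judged on FPKM. Of the 44 gene lists described, the cytosolic ribosomal proteins had the lowest median (−0.78) and the immediate early genes the highest (0.48). Counts of list members at an unadjusted p under 0.05 are to be read against 2.31% higher and 3.33% lower of all genes.

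**Figure D1:**
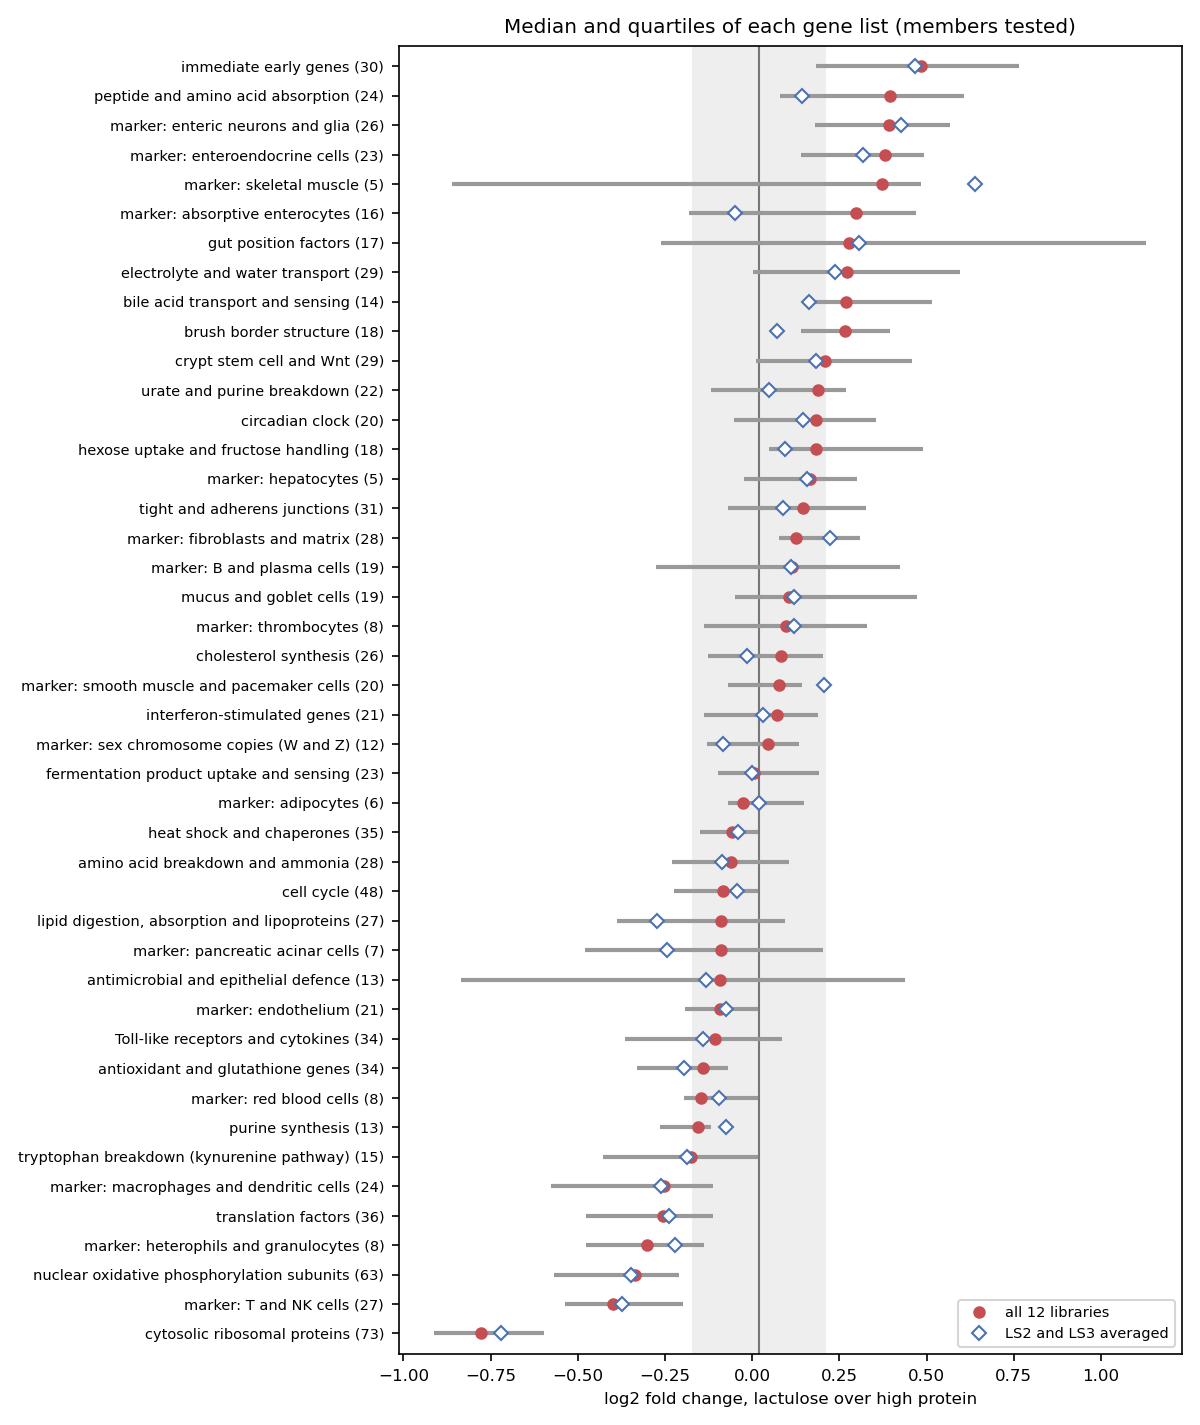
Median log2 fold change of lactulose over high protein for each gene list (red circles, all 12 libraries fitted; open diamonds, LS2 and LS3 averaged as 1 library), with grey bars from the lower to the upper quartile and the number of members tested in brackets. The vertical line and shaded band are the median (0.02) and quartiles of all genes. Ribosomal proteins lie lowest and immediate early genes highest, and the diamonds of the enterocyte, brush border and peptide absorption lists lie nearer to the line or beyond it.

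The gene of smallest p was HAAO, the dioxygenase of the kynurenine pathway that turns a tryptophan breakdown product into the precursor of NAD. HAAO stood at 2.86, 2.34, 2.03 and 2.53 FPKM in LS libraries, against 4.16, 6.67, 4.56 and 4.69 FPKM in MG libraries and 2.93, 3.77, 3.78 and 3.05 FPKM in CG libraries. Every lactulose library lay below every high protein library, and also below every control library. Its log2 fold change was −1.12 ± 0.19 (edgeR adjusted p = 0.572; DESeq2 adjusted p = 3.4e-06, and 0.000547 with LS2 and LS3 averaged). The gene lies on scaffold NW_025927670.1, 3219731 to 3254064 on the plus strand, in the coordinates of the deposited table, whose genome build is not given in the sources used here.

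Of the 15 tested genes of tryptophan breakdown, 11 were lower with lactulose, with a median of −0.18 against 0.02 over all genes, and 3 were lower at an unadjusted p under 0.05 while 0 were higher, against 3.33% lower and 2.31% higher of all genes. Beside HAAO these were KYAT1, an aminotransferase that converts kynurenine to kynurenic acid, and NMNAT1, which makes NAD in the nucleus. KYAT1 stood at 3.33, 3.48, 3.29 and 3.24 FPKM with lactulose, against 6.35, 6.93, 4.79 and 2.85 FPKM with high protein. The lactulose values were nearly equal, with MG4 below them and the other high protein values above (log2 fold change −0.72 ± 0.25). NMNAT1 ranged from 20.7 to 21.5 FPKM with lactulose and from 22.8 to 25.9 FPKM with high protein, without overlap but close together (log2 fold change −0.29 ± 0.12). The enzymes of the steps before HAAO overlapped between the diets. KMO, which hydroxylates kynurenine, averaged 0.751 ± 0.19 FPKM with lactulose and 1.1 ± 0.27 FPKM with high protein (SD, n = 4 each), and KYNU, which cleaves it, averaged 0.897 ± 0.413 FPKM with lactulose and 1.13 ± 0.19 FPKM with high protein.

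Other genes of amino acid breakdown moved little as a group (20 of 28 negative, median −0.06). At an unadjusted p under 0.05, 3 were lower and 0 higher, against 3.33% and 2.31% of all genes. With LS2 and LS3 averaged 2 were lower, against 1.81% of all genes. ASNS, asparagine synthetase, a gene known to respond to amino acid shortage, stood at 11.6, 8.0, 7.78 and 8.27 FPKM with lactulose, against 10.3, 12.4, 15.1 and 13.8 FPKM with high protein. Only LS1 reached into the high protein range (log2 fold change −0.64 ± 0.19). CTH, which makes cysteine from cystathionine, ranged from 12.9 to 15.2 FPKM with lactulose and from 15.6 to 19.2 FPKM with high protein, without overlap. GPT2, the mitochondrial alanine aminotransferase, overlapped, with averages of 2.63 ± 0.733 FPKM with lactulose and 3.82 ± 1.36 FPKM with high protein (SD, n = 4 each).

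CEL, the lipase that bile salts activate and that splits cholesterol esters and fats, stood at 6.82, 4.69, 4.62 and 3.7 FPKM in LS libraries, against 13.4, 12, 13.2 and 13 FPKM in MG libraries and 10.9, 15.3, 15.2 and 6.09 FPKM in CG libraries. The high protein values were tightly grouped, and no lactulose library came near them, while CG4 lay within the lactulose range. The log2 fold change was −1.49 ± 0.26 (edgeR adjusted p = 0.572; DESeq2 adjusted p = 0.000324, and 0.00991 with LS2 and LS3 averaged). CEL was the 1 gene that edgeR called when CG4 was left out.

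The next gene downstream, GTF3C5, a subunit of the factor TFIIIC that places RNA polymerase III on its genes, gave almost the same picture. GTF3C5 stood at 6.88, 5.28, 5.23 and 4.29 FPKM in LS libraries, against 10.7, 9.42, 11.8 and 12.7 FPKM in MG libraries and 9.62, 13.8, 11.4 and 5.97 FPKM in CG libraries, again without overlap between LS and MG and with CG4 low. Its log2 fold change was −1.14 ± 0.24 (edgeR adjusted p = 0.699; DESeq2 adjusted p = 0.00951, and 0.0736 with LS2 and LS3 averaged). CEL lies at 7669600 to 7683690 and GTF3C5 at 7684482 to 7695266 on the plus strand of scaffold NW_025927668.1, with 791 bases between them. Their log2(FPKM + 0.1) values correlated at 0.984 over the 12 libraries. How the counting assigned reads that run from one into the other is not given, and the pair is given here as 1 locus.

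The other genes of lipid digestion and absorption did not share this difference. Of the 27 tested genes of this kind, CEL included, 17 were negative. Their median was −0.09, which was −0.27 with LS2 and LS3 averaged, and CEL was the 1 gene at an unadjusted p under 0.05. NPC1L1, the intestinal cholesterol transporter, stood at 1.2, 1.53, 1.32 and 1.1 FPKM with lactulose, against 7.72, 1.25, 1.16 and 0.799 FPKM with high protein. Only MG1 stood apart, so its log2 fold change of −1.18 ± 0.59 rests on 1 library and was 0.20 without it. Among 26 genes of cholesterol synthesis the median was 0.08, with INSIG2, which holds back sterol synthesis, at 20.1 ± 1.54 FPKM with lactulose and 24.3 ± 3.59 FPKM with high protein (log2 fold change −0.37 ± 0.13). HSD17B7, an enzyme of the pathway, stood at 5.2 ± 0.614 FPKM with lactulose and 3.86 ± 0.701 FPKM with high protein (log2 fold change 0.33 ± 0.20; SD, n = 4 each).

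**Figure D2:**
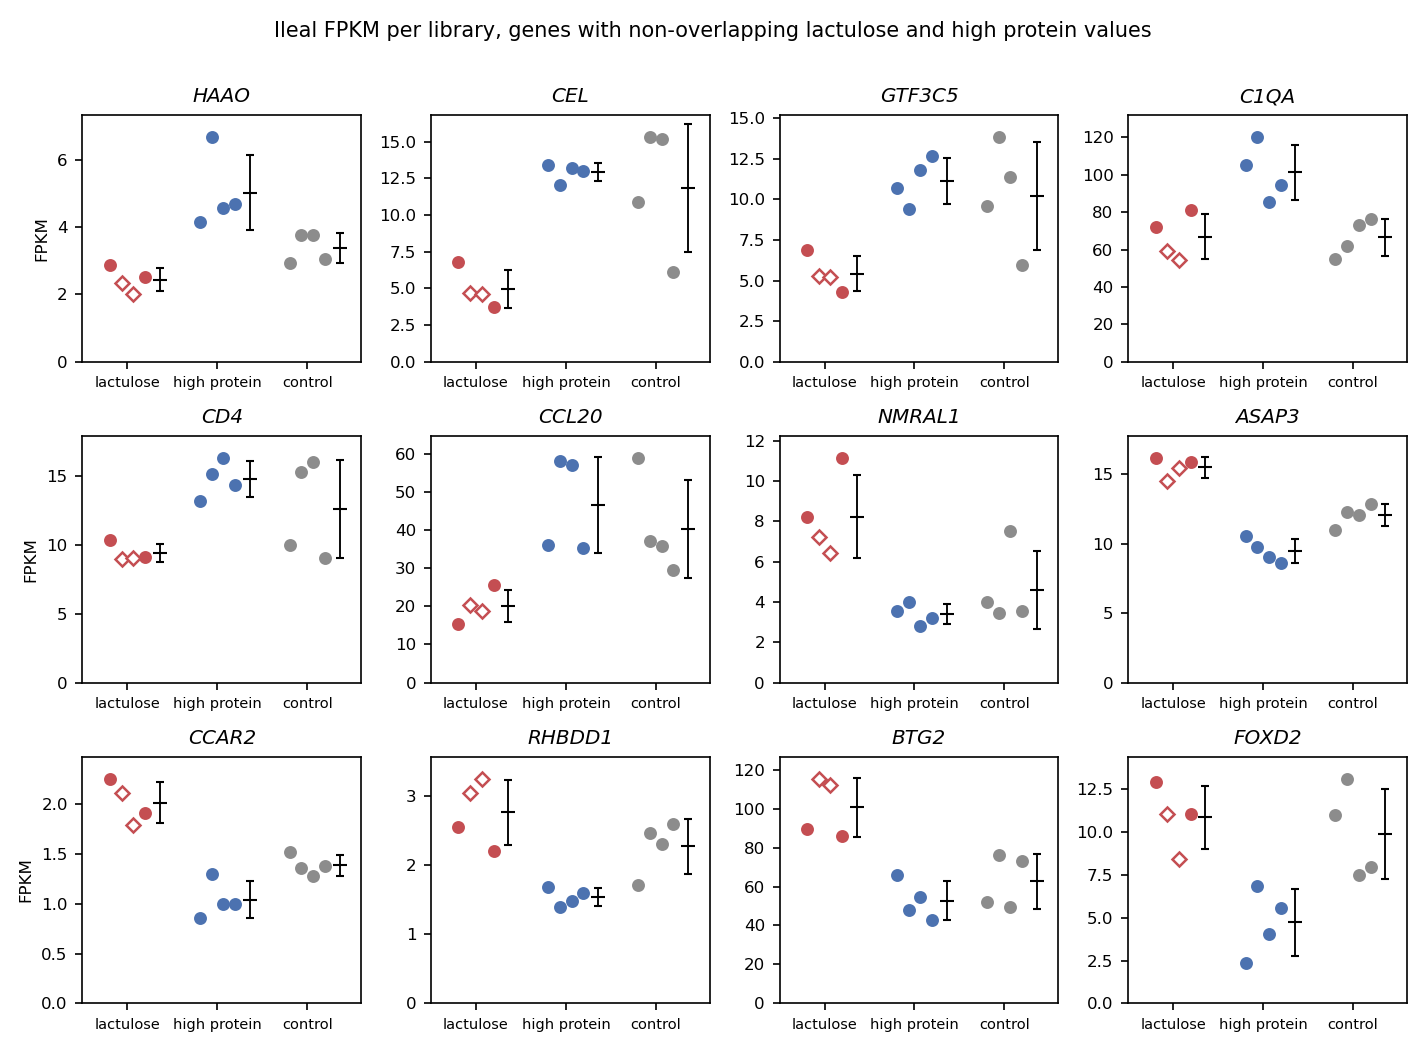
FPKM (linear axes from 0) of 12 genes in each library of the lactulose (red), high protein (blue) and control (grey) groups, with LS2 and LS3 as open diamonds and the mean and SD of each group in black (n = 4). In each panel the lactulose and high protein values do not overlap, while the controls lie with one, with the other or between them.

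Among the genes higher with lactulose, NMRAL1, a protein that senses the redox cofactor NADPH, stood at 8.19, 7.2, 6.43 and 11.1 FPKM in LS libraries, against 3.54, 3.98, 2.81 and 3.22 FPKM in MG libraries and 3.98, 3.44, 7.49 and 3.54 FPKM in CG libraries. The 4 lactulose values lay well above the high protein values, and of the controls CG3 alone reached them. Its log2 fold change was 1.19 ± 0.23 (edgeR adjusted p = 0.699; DESeq2 adjusted p = 0.00492, and 0.0225 with LS2 and LS3 averaged). ASAP3, which switches off Arf proteins of membrane traffic and the actin skeleton, stood at 16.2, 14.5, 15.5 and 15.9 FPKM in LS libraries, against 10.6, 9.76, 9.02 and 8.61 FPKM in MG libraries and 11, 12.3, 12.1 and 12.9 FPKM in CG libraries. The 3 diets formed 3 separate bands, with the controls in the middle. Its log2 fold change was 0.62 ± 0.12 (edgeR adjusted p = 0.699; DESeq2 adjusted p = 0.00171, and 0.0225 with LS2 and LS3 averaged).

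CCAR2, a nuclear protein that binds and restrains the deacetylase SIRT1, stood at 2.25, 2.12, 1.79 and 1.91 FPKM with lactulose, against 0.861, 1.3, 1.0 and 1.0 FPKM with high protein and 1.53, 1.36, 1.28 and 1.38 FPKM in controls. The lactulose values again lay above both other diets (log2 fold change 0.87 ± 0.20; edgeR adjusted p = 0.845; DESeq2 adjusted p = 0.0110, and 0.110 averaged). RHBDD1, a rhomboid protease of the endoplasmic reticulum, stood at 2.56, 3.05, 3.24 and 2.21 FPKM with lactulose, against 1.68, 1.4, 1.48 and 1.59 FPKM with high protein. The highest values were those of LS2 and LS3, and the controls (1.71 to 2.6 FPKM) lay above the high protein range and overlapped with lactulose. The log2 fold change was 0.76 ± 0.19 (edgeR adjusted p = 0.845; DESeq2 adjusted p = 0.0445, and 0.355 averaged).

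The other 3 higher genes with a symbol that DESeq2 called differed within the lactulose group. ADRA2A, an inhibitory adrenergic receptor, stood at 0.903, 0.399, 0.435 and 0.86 FPKM with lactulose, against 0.17, 0.319, 0.148 and 0.177 FPKM with high protein and 0.381, 0.723, 0.294 and 0.498 FPKM in controls. LS1 and LS4 held the highest values, and the levels are low throughout (log2 fold change 1.58 ± 0.34; edgeR adjusted p = 0.762; DESeq2 adjusted p = 0.00809, and 0.0114 averaged). HGFAC, the protease that activates hepatocyte growth factor, stood at 0.47, 5.75, 6.03 and 0.411 FPKM with lactulose, against 0.573, 0.304, 0.162 and 0.0756 FPKM with high protein. It was high in LS2 and LS3 alone, the 2 libraries that are nearly alike, while LS1 and LS4 lay within the high protein range (log2 fold change 3.47 ± 0.92; edgeR adjusted p = 0.845; DESeq2 adjusted p = 0.0161). With LS2 and LS3 averaged DESeq2 gave HGFAC no adjusted p, and edgeR's log2 fold change was 2.97. GALNT8, a member of the family of enzymes that start O-linked glycan chains such as those of mucins, stood at 1.31, 2.52, 0.698 and 16.7 FPKM with lactulose, against 0.664, 0.644, 0.56 and 0.838 FPKM with high protein, so that most of its log2 fold change of 2.86 ± 0.79 came from LS4 and 1.08 was left without it (edgeR adjusted p = 0.845; DESeq2 adjusted p = 0.0315, and 0.0114 averaged).

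FOXD2, CELSR3 and MAPKBP1 were among the 10 higher genes of smallest p without overlap, were not called by DESeq2 on all 12 libraries and belong to none of the gene lists. FOXD2, a forkhead transcription factor, stood at 12.9, 11, 8.41 and 11.1 FPKM with lactulose, against 2.38, 6.88, 4.08 and 5.55 FPKM with high protein and 11, 13.1, 7.5 and 7.96 FPKM in controls. The high protein group was the low one there, and the lactulose and control values overlapped (log2 fold change 1.12 ± 0.30, edgeR adjusted p = 0.845). CELSR3, an adhesion receptor of cell polarity, ranged from 2.22 to 2.91 FPKM with lactulose and from 1.43 to 1.99 FPKM with high protein. MAPKBP1, a scaffold of the JNK kinases, ranged from 4.41 to 5.09 FPKM with lactulose and from 2.66 to 4.02 FPKM with high protein. Their log2 fold changes were 0.46 ± 0.13 and 0.51 ± 0.14, and edgeR's adjusted p was 0.845 for both.

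On the lower side, SVIP, an inhibitor of protein removal from the endoplasmic reticulum, stood at 13, 13.6, 13.9 and 13.3 FPKM with lactulose, against 18, 25.2, 18 and 20.6 FPKM with high protein and 15.9, 18.1, 21.9 and 15.4 FPKM in controls. The lactulose values were close to each other and lay below all high protein and control libraries (log2 fold change −0.68 ± 0.13; edgeR adjusted p = 0.680; DESeq2 adjusted p = 0.00492, and 0.0225 averaged). BCCIP, a cofactor of the DNA repair protein BRCA2, ranged from 20.7 to 27.9 FPKM with lactulose and from 32.3 to 37.6 FPKM with high protein (log2 fold change −0.59 ± 0.14). HPSE, heparanase, which cuts heparan sulfate in the matrix, ranged from 7.32 to 10.9 FPKM with lactulose and from 11.2 to 14.2 FPKM with high protein (log2 fold change −0.57 ± 0.15). IFNAR2, a subunit of the type I interferon receptor, ranged from 33.6 to 36.8 FPKM with lactulose and from 37.2 to 59.1 FPKM with high protein (log2 fold change −0.60 ± 0.15). For these 3 genes edgeR's adjusted p was 0.845 and DESeq2's 0.0626, 0.164 and 0.118 in the order named.

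Genes of macrophages and dendritic cells, the phagocytes beneath the ileal epithelium, were mostly lower with lactulose. Of 24 tested, 20 were negative (median −0.25). At an unadjusted p under 0.05, 10 were lower and 0 higher, against 3.33% and 2.31% of all genes. With LS2 and LS3 averaged 7 were lower, against 1.81% of all genes. C1QA and C1QB are chains of complement C1q, which macrophages secrete. C1QA stood at 71.9, 59.4, 54.7 and 81.3 FPKM in LS libraries, against 105, 120.0, 85.3 and 94.6 FPKM in MG libraries and 54.9, 61.7, 73.1 and 76.4 FPKM in CG libraries. The highest lactulose value fell just short of the lowest high protein value, and the controls lay in the lactulose range (log2 fold change −0.69 ± 0.13; edgeR adjusted p = 0.680; DESeq2 adjusted p = 0.00261, and 0.0496 averaged). C1QB stood at 73.3, 44, 40.8 and 82.9 FPKM with lactulose, against 87.1, 94.5, 94.4 and 79.3 FPKM with high protein, with LS4 inside the high protein range (log2 fold change −0.67 ± 0.23).

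SPI1, the transcription factor PU.1 that myeloid cells depend on, stood at 33.4, 26.5, 28 and 36.5 FPKM with lactulose, against 36.2, 47.9, 43 and 46.9 FPKM with high protein. LS4 and MG1 touched, and the other values were apart (log2 fold change −0.58 ± 0.12; edgeR adjusted p = 0.699; DESeq2 adjusted p = 0.00809, and 0.117 averaged). LY96, the partner of TLR4 in sensing lipopolysaccharide, stood at 1.02, 1.14, 1.18 and 1.27 FPKM with lactulose, against 1.14, 1.98, 2.48 and 1.78 FPKM with high protein. BATF3, a transcription factor of cross-presenting dendritic cells, stood at 20.6, 26.3, 25.4 and 28 FPKM with lactulose, against 54.5, 24.4, 60.3 and 68.2 FPKM with high protein. In both genes 3 of the 4 high protein libraries lay above all lactulose libraries (log2 fold changes −0.76 ± 0.23 and −1.15 ± 0.38). CD83, a surface protein of mature dendritic cells, averaged 10.9 ± 1.82 FPKM with lactulose and 15.7 ± 3.31 FPKM with high protein (SD, n = 4 each; log2 fold change −0.63 ± 0.19). The summed FPKM of the whole list, in which the most abundant members weigh most, did not separate the diets. It was 3235 to 4171 FPKM with lactulose and 3427 to 4329 FPKM with high protein. The median over its members of log2 CPM, centred on each gene's mean of the 12 libraries, differed more. It was −0.20, −0.08, −0.08 and 0.02 in LS libraries, against 0.02, 0.28, 0.29 and 0.15 in MG libraries. The ranges met at LS4 and MG1, and the controls stood at −0.07, −0.04, −0.24 and 0.06.

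Genes of T and NK cells followed the same direction, with 23 of 27 negative and a median of −0.40 (−0.37 with LS2 and LS3 averaged). Of the 27, 9 were lower and 0 higher at an unadjusted p under 0.05, against 3.33% and 2.31% of all genes. With LS2 and LS3 averaged 6 of the 27 were lower, against 1.81% of all genes. CD4, the coreceptor of helper T cells, stood at 10.4, 8.97, 9.06 and 9.11 FPKM in LS libraries, against 13.2, 15.2, 16.3 and 14.4 FPKM in MG libraries and 9.96, 15.3, 16 and 9.06 FPKM in CG libraries. The lactulose values were tight and below all high protein values, while CG1 and CG4 lay in the lactulose range and CG2 and CG3 in the high protein range (log2 fold change −0.75 ± 0.16; edgeR adjusted p = 0.762; DESeq2 adjusted p = 0.0277, and 0.156 averaged). CD3D, a chain of the T cell receptor complex, stood at 85.4, 89, 89.4 and 117 FPKM with lactulose, against 98.6, 179.6, 195 and 133 FPKM with high protein, where MG1 was low and LS4 high (log2 fold change −0.76 ± 0.29). The costimulatory receptor CD28 (2.82 to 3.94 FPKM with lactulose and 4.43 to 6.13 FPKM with high protein) and UBASH3A, which dampens T cell receptor signals (1.63 to 2.14 FPKM with lactulose and 2.44 to 3.21 FPKM with high protein), did not overlap. CD40LG, the helper signal to B cells, and IL2RG, the common cytokine receptor chain, overlapped (log2 fold changes −0.73 ± 0.24 and −0.40 ± 0.16). In bulk tissue, fewer cells of a type and less RNA per cell cannot be told apart. The summed level of the list was 361 to 442 FPKM with lactulose and 398 to 623 FPKM with high protein.

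CCL20, the chemokine that draws CCR6-bearing lymphocytes and dendritic cells to the epithelium, stood at 15.5, 20.5, 18.8 and 25.6 FPKM in LS libraries, against 36.2, 58.1, 57 and 35.2 FPKM in MG libraries and 58.9, 37.2, 35.7 and 29.5 FPKM in CG libraries. All lactulose values lay below those of both other diets (log2 fold change −1.30 ± 0.31; edgeR adjusted p = 0.845; DESeq2 adjusted p = 0.0445, and 0.181 averaged). Cytokines of the type 17 response lay on the same side. IL17A stood at 0.0611, 0.0907, 0.0313 and 0.15 FPKM with lactulose, against 0.0924, 0.689, 0.431 and 0.535 FPKM with high protein, with MG1 in the lactulose range (log2 fold change −2.42 ± 0.74). The levels are close to nothing, from 4 to 92 counts over the 12 libraries. IL22, which prompts the epithelium to defend and repair itself, stood at 3.14, 0.518, 0.638 and 1.03 FPKM with lactulose, against 1.17, 2.13, 4.01 and 4.24 FPKM with high protein and 3.72, 2.49, 5.26 and 10.6 FPKM in controls. LS1 reached into the high protein range, and the other lactulose values lay below all high protein and control libraries (log2 fold change −1.29 ± 0.60).

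The Toll-like receptor and cytokine list as a whole differed less, with 21 of 34 negative and a median of −0.11. The 3 lower at an unadjusted p under 0.05, against 3.33% of all genes, were CCL20, IL17A and IRAK4. IRAK4, the kinase that relays Toll-like receptor signals, averaged 11 ± 2.0 FPKM with lactulose and 13.6 ± 2.33 FPKM with high protein (log2 fold change −0.40 ± 0.13). Receptors and relays that the study's question on gut health points to were near equal. TLR4, the lipopolysaccharide receptor, averaged 1.23 ± 0.0738 FPKM with lactulose and 1.32 ± 0.153 FPKM with high protein. Its adaptor MYD88 averaged 22.8 ± 0.709 FPKM with lactulose and 23.8 ± 3.35 FPKM with high protein. NFKB1, a subunit of NF-kB, averaged 26.9 ± 2.5 FPKM with lactulose and 27.7 ± 3.28 FPKM with high protein (SD, n = 4 each). Their log2 fold changes were −0.20 ± 0.21, −0.14 ± 0.13 and −0.13 ± 0.16, each overlapping between the diets. The cytokine IL6 did not exceed 0.207 FPKM.

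Among 13 genes of epithelial defence (median −0.09), NOS2 and ACOD1, enzymes that activated macrophages and epithelium use to make nitric oxide and itaconate, were the 2 lower at an unadjusted p under 0.05. With LS2 and LS3 averaged 0 of the 13 were lower at that threshold. NOS2 stood at 0.893, 1.07, 1.33 and 1.14 FPKM in LS libraries, against 3.24, 1.3, 9.81 and 6.94 FPKM in MG libraries and 3.17, 3.97, 5.82 and 119 FPKM in CG libraries. The lactulose values were uniformly low, MG2 was as low, and CG4 exceeded all others by far (log2 fold change −2.38 ± 1.06). ACOD1 stood at 0.285, 0.176, 0.224 and 0.171 FPKM with lactulose, against 0.583, 0.493, 0.195 and 1.15 FPKM with high protein, with MG3 among the lactulose values (log2 fold change −1.58 ± 0.68). GBP1, an interferon-induced GTPase, stood at 5.96, 3.16, 3.39 and 1.67 FPKM with lactulose, against 8.75, 4.28, 14.5 and 15.7 FPKM with high protein, and MG2 again lay in the lactulose range (log2 fold change −1.75 ± 0.59). The interferon-stimulated genes showed no common direction (14 of 21 positive, median 0.07), and CMPK2, a nucleotide kinase induced with them, overlapped (log2 fold change −0.64 ± 0.40).

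The other white blood cell lists were small or mixed. Of 8 heterophil and granulocyte genes, 6 were negative (median −0.30), with CSF3R, the receptor for granulocyte growth factor, at 7.4, 8.68, 7.74 and 7.64 FPKM with lactulose, against 14.3, 16, 8.43 and 8.15 FPKM with high protein. MG1 and MG2 were high, and MG3 and MG4 lay in the lactulose range (log2 fold change −0.64 ± 0.25), and MMP9, a granule protease, overlapped (log2 fold change −1.08 ± 0.53). Of 19 B and plasma cell genes, 11 were positive (median 0.12). TNFRSF17, the plasma cell receptor BCMA, was at or under 0.753 FPKM in all libraries (log2 fold change −1.48 ± 0.43). PAX5, the B cell transcription factor, stood at 0.632, 1.21, 1.2 and 0 FPKM with lactulose, against 0.0822, 0.0959, 0.0319 and 0.0835 FPKM with high protein, high in LS2 and LS3 and at 0 in LS4.

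**Figure D3:**
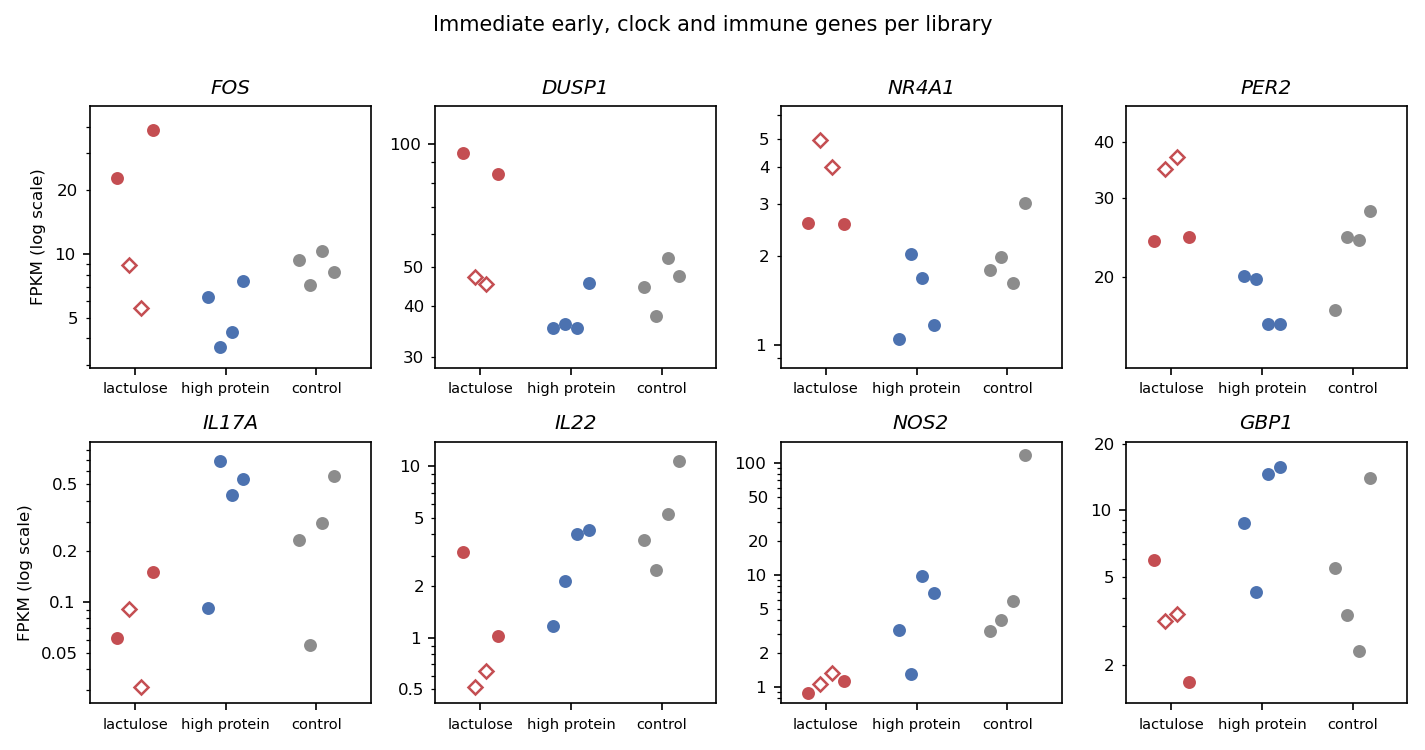
FPKM (log axes, scaled per panel) of 8 immediate early, clock and immune genes in each library of the lactulose (red), high protein (blue) and control (grey) groups, with LS2 and LS3 as open diamonds. FOS and DUSP1 are high in LS1 and LS4, NR4A1 and PER2 are highest in LS2 and LS3, and the lactulose values of NOS2 are uniformly low.

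Immediate early genes, the rapid first response of cells to stimuli and also to tissue handling, were the list with the highest median. Of 30 tested, 27 were positive (median 0.48, and 0.47 with LS2 and LS3 averaged). At an unadjusted p under 0.05, 11 were higher and 0 lower, against 2.31% and 3.33% of all genes. When averaged 9 were higher, against 1.47% of all genes. The median centred log2 CPM of the list was 0.20, 0.17, −0.07 and 0.27 in LS libraries, against −0.21, −0.25, −0.15 and −0.19 in MG libraries. In CG libraries it was 0.19, −0.08, −0.14 and 0.09. CG1 and CG4 thus lay in the lactulose range, and CG2 and CG3 lay between the ranges of lactulose and high protein. The members split by library. FOS, which pairs with JUN as the regulator AP-1, stood at 22.9, 8.9, 5.57 and 38.5 FPKM with lactulose, against 6.29, 3.64, 4.3 and 7.43 FPKM with high protein and 9.41, 7.14, 10.3 and 8.25 FPKM in controls. LS1 and LS4 exceeded every other library, while LS3 lay in the high protein range (log2 fold change 1.67 ± 0.48; edgeR adjusted p = 0.845; DESeq2 adjusted p = 0.119, and 0.0225 averaged). DUSP1, a phosphatase that ends kinase signals, stood at 95.2, 47.3, 45.4 and 84.2 FPKM with lactulose, against 35.4, 36.3, 35.5 and 45.6 FPKM with high protein, with LS1 and LS4 again the high pair (log2 fold change 0.72 ± 0.21). JUN itself stood at 136, 84.7, 76.4 and 123 FPKM with lactulose, against 59.4, 71.9, 63.2 and 73.3 FPKM with high protein, with the same 2 libraries highest but without overlap (log2 fold change 0.54 ± 0.17).

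BTG2 and NR4A1 were highest in LS2 and LS3. BTG2, which slows cell division, stood at 89.7, 115, 112 and 85.7 FPKM in LS libraries, against 65.8, 47.9, 54.7 and 42.8 FPKM in MG libraries and 51.9, 76.3, 49.4 and 72.9 FPKM in CG libraries. NR4A1, a nuclear receptor, stood at 2.58, 4.97, 4.0 and 2.57 FPKM with lactulose, against 1.05, 2.03, 1.69 and 1.17 FPKM with high protein. Neither overlapped between LS and MG, and LS1 and LS4 also lay above the high protein range (log2 fold changes 0.85 ± 0.22 and 1.19 ± 0.32; edgeR adjusted p = 0.845 for both; DESeq2 adjusted p = 0.0913 and 0.119). SIK1, a kinase induced by cyclic AMP, ranged from 11.9 to 15.8 FPKM with lactulose and from 7.87 to 10.6 FPKM with high protein. Its highest lactulose value was that of LS1, and the controls (12.3 to 17.2 FPKM) lay with the lactulose values or above.

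Clock genes, which drive daily rhythms, were positive in 14 of 20 cases (median 0.18). At an unadjusted p under 0.05, 4 were higher and 0 lower, against 2.31% and 3.33% of all genes. With LS2 and LS3 averaged 2 were higher, against 1.47% of all genes. PER2 stood at 24.1, 34.7, 37 and 24.6 FPKM with lactulose, against 20.1, 19.8, 15.7 and 15.7 FPKM with high protein and 16.8, 24.5, 24.1 and 28 FPKM in controls. PER3 stood at 4.09, 3.25, 3.09 and 2.87 FPKM with lactulose, against 1.53, 2.55, 1.44 and 2.1 FPKM with high protein. Both period genes, repressors of the clock, were without overlap between LS and MG (log2 fold changes 0.69 ± 0.20 and 0.72 ± 0.20; edgeR adjusted p = 0.845 for both). NR1D2, a repressor of the second clock loop, ranged from 28.6 to 31.7 FPKM with lactulose and from 18.4 to 27.1 FPKM with high protein, also without overlap. BHLHE40, another clock repressor, stood at 8.9, 25.9, 26 and 11 FPKM with lactulose, against 12.2, 9.8, 9.22 and 7.88 FPKM with high protein, and was high in LS2 and LS3 alone (log2 fold change 0.83 ± 0.37, 0.57 averaged). The hour of sampling is not given in the sources used here.

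Genes for the machinery of protein synthesis were lower with lactulose, though none was called by edgeR or DESeq2 on all 12 libraries. All 73 tested cytosolic ribosomal protein genes were negative (median −0.78, and −0.72 with LS2 and LS3 averaged). At an unadjusted p under 0.05, 24 were lower and 0 higher, against 3.33% and 2.31% of all genes. When averaged 6 were lower, against 1.81% of all genes. On the 8 libraries of the comparison alone, with LS2 and LS3 kept separate, 63 were lower, against 6.79% of all genes. In 30 of them the TMM-scaled values did not overlap, against 3.71% of all genes, and in 15 of them the FPKM did not overlap, against 1.79% of all genes. RPL35A stood at 698, 525, 465 and 852 FPKM in LS libraries, against 953, 1220.0, 1729.6 and 1425 FPKM in MG libraries and 2115, 1351, 1144 and 634 FPKM in CG libraries. LS4 and MG1 came closest, CG4 lay with the lactulose libraries, and the widest spread was among the controls. RPL3, RPL5 and RPS27A did not overlap between LS and MG either, and RPS14 did (log2 fold changes −0.79 ± 0.27, −1.10 ± 0.38, −0.96 ± 0.35 and −0.79 ± 0.29). For these 5 genes edgeR's adjusted p was 0.845.

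The list moved as a block from library to library. Its median centred level was −0.64, −0.60, −0.71 and 0.05 log2 units in LS libraries, against 0.07, 0.19, 0.73 and 0.24 in MG libraries and 1.34, 0.07, −0.09 and −0.65 in CG libraries. LS1, LS2 and LS3 were low and LS4 sat with the lower high protein libraries, while CG1 and CG4 alone spanned a wider range than the 2 diets compared. Translation factors showed the same in smaller measure (32 of 36 negative, median −0.25). Of the 36, 4 were lower at an unadjusted p under 0.05, against 3.33% of all genes. On the 8 libraries alone 15 were lower, against 6.79% of all genes. EEF1A1, the elongation factor and one of the most abundant transcripts, stood at 7285, 8206, 7752 and 11596 FPKM with lactulose, against 13491, 14803, 21361 and 14055 FPKM with high protein. EIF2S3, EIF3M and EIF3H, parts of the initiation machinery, were likewise without overlap (log2 fold changes −0.55 ± 0.17, −0.67 ± 0.23 and −0.71 ± 0.26, against −0.97 ± 0.36 for EEF1A1).

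Nuclear genes for oxidative phosphorylation, which makes ATP in mitochondria, were negative in 59 of 63 cases (median −0.34). At an unadjusted p under 0.05, 2 were lower, about the share of all genes (3.33%), and 0 were higher (2.31% of all genes). With LS2 and LS3 averaged 0 were lower. On the 8 libraries of the comparison alone, with LS2 and LS3 kept separate, 33 were lower, against 6.79% of all genes. The 2 lower in the main fit were complex I subunits. NDUFV2 stood at 106, 82.6, 82.3 and 125 FPKM with lactulose, against 162, 138, 201 and 158 FPKM with high protein and 276, 136, 136 and 116 FPKM in controls. NDUFA10 stood at 161, 118, 106 and 156 FPKM with lactulose, against 211, 162, 227 and 182 FPKM with high protein. LS and MG did not overlap in either gene, and CG1 exceeded both diets (log2 fold changes −0.85 ± 0.34 and −0.65 ± 0.26). The median centred level of the list was −0.37, −0.18, −0.33 and −0.07 in LS libraries, against 0.24, −0.24, 0.37 and 0.11 in MG libraries and 1.15, −0.10, −0.26 and −0.33 in CG libraries, so that MG2 lay among the lactulose libraries and CG1 stood far above the rest.

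Antioxidant genes leaned the same way (28 of 34 negative, median −0.14), with 1 lower at an unadjusted p under 0.05, which was NQO2, a quinone reductase (log2 fold change −0.73 ± 0.31). With LS2 and LS3 averaged 0 of the 34 were lower at that threshold. The classic enzymes were not apart. SOD1 averaged 115 ± 14.6 FPKM with lactulose and 116 ± 17.4 FPKM with high protein, and CAT averaged 90.4 ± 17.7 FPKM with lactulose and 94.7 ± 19.5 FPKM with high protein. GPX2, the gut glutathione peroxidase, stood at 7.1, 2.85, 2.83 and 9.91 FPKM with lactulose, against 10.6, 7.81, 4.31 and 4.57 FPKM with high protein, low in LS2 and LS3 and overlapping otherwise. NFE2L2, the regulator of this defence, averaged 43.3 ± 1.57 FPKM with lactulose and 42.5 ± 3.42 FPKM with high protein (SD, n = 4 each), and GPX8 overlapped (log2 fold changes −0.06 ± 0.14 and −0.61 ± 0.35).

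Heat shock genes hardly differed (35 tested, median −0.06), and DNAJA2, a cochaperone, and XBP1, the regulator of the secretory stress response, overlapped (log2 fold changes −0.23 ± 0.12 and −0.30 ± 0.17). Cell cycle genes had a median of −0.08 over 48. At an unadjusted p under 0.05, 3 were lower, against 3.33% of all genes, and 0 when LS2 and LS3 were averaged. CCNB2, the mitotic cyclin, stood at 37, 20.4, 19 and 25.5 FPKM with lactulose, against 30.1, 24.6, 50.2 and 38.6 FPKM with high protein. MCM5, a part of the replication helicase, stood at 17.5, 8.33, 7.51 and 9.47 FPKM with lactulose, against 9.94, 18.6, 22.3 and 11.9 FPKM with high protein. In both LS2 and LS3 were lowest, LS1 was high, and the diets overlapped, as they did in MYBL2, a transcription factor of dividing cells (log2 fold changes −0.63 ± 0.26, −0.68 ± 0.30 and −0.26 ± 0.12).

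**Figure D4:**
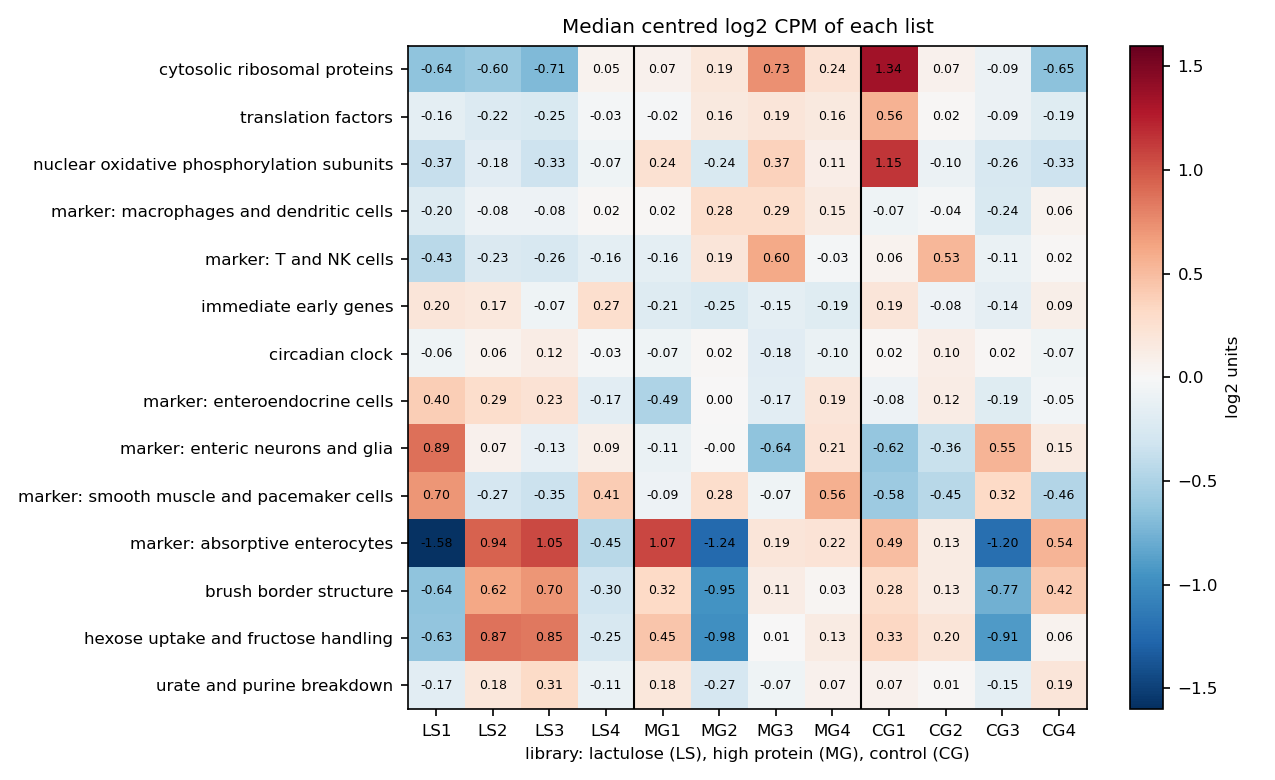
Median over list members of log2 CPM centred on each gene's mean of the 12 libraries, one column per library and one row per list, from blue (low) to red (high). Ribosomal, translation and oxidative phosphorylation lists move together across libraries, and the enterocyte, brush border and hexose lists are high in LS2, LS3 and MG1 and low in LS1, MG2 and CG3.

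Genes of urate and purine breakdown, the second question of the study, were not separated by lactulose. Of 22 tested, 15 were positive (median 0.19, but 0.05 with LS2 and LS3 averaged), with 1 higher and 1 lower at an unadjusted p under 0.05. When averaged 0 were higher and 1 lower at that threshold. XDH, the enzyme that makes uric acid, stood at 9.76, 23.2, 24.5 and 9.17 FPKM in LS libraries, against 19.5, 7.39, 11.7 and 13.8 FPKM in MG libraries and 11.2, 14.6, 10.7 and 23.3 FPKM in CG libraries. It was high in LS2 and LS3, in MG1 and in CG4, and LS1 and LS4 lay near the bottom of the high protein range (log2 fold change 0.28 ± 0.42, 0.02 averaged; edgeR adjusted p = 0.953). ABCG2, a urate exporter of the gut lining in mammals, stood at 11.5, 46.2, 50.8 and 21.2 FPKM with lactulose, against 41.4, 7.33, 23.9 and 23.5 FPKM with high protein. ADA, which turns adenosine into inosine, stood at 21.2, 48.3, 52.6 and 28.4 FPKM with lactulose, against 52, 12.8, 29.6 and 26 FPKM with high protein. GDA, which turns guanine into xanthine, stood at 11.4, 49.8, 52.9 and 12.5 FPKM with lactulose, against 28.9, 12.4, 17.2 and 25.3 FPKM with high protein. In all 3 LS2 and LS3 were high while LS1 and LS4 lay within or just below the high protein range (log2 fold changes 0.36 ± 0.58, 0.24 ± 0.49 and 0.54 ± 0.54, and 0.07, 0.03 and 0.18 averaged).

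SLC2A9, the urate carrier, averaged 6.55 ± 2.03 FPKM with lactulose and 6.18 ± 1.65 FPKM with high protein, with a log2 fold change of 0.00 ± 0.31 and of −0.16 averaged. The 2 genes of the list at an unadjusted p under 0.05 went opposite ways. AMPD2, which deaminates AMP, stood at 11, 14, 14.2 and 11.9 FPKM with lactulose, against 9.78, 10.2, 7.79 and 8.56 FPKM with high protein, without overlap on FPKM (log2 fold change 0.42 ± 0.16). On CPM scaled by TMM the diets overlapped in AMPD2. APRT, which salvages adenine, overlapped, at 7.0, 6.11, 6.12 and 7.24 FPKM with lactulose, against 6.39, 9.0, 8.11 and 9.39 FPKM with high protein (log2 fold change −0.40 ± 0.16). In purine synthesis 12 of 13 genes were negative (median −0.15, −0.07 averaged). GMPS, which makes GMP, averaged 23.8 ± 0.709 FPKM with lactulose and 26.9 ± 2.46 FPKM with high protein, and ADSS2, on the AMP branch, 31 ± 3.59 FPKM with lactulose and 33.3 ± 3.04 FPKM with high protein (SD, n = 4 each).

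Transcripts of the absorptive epithelium were high in LS2, LS3 and MG1, as XDH, ABCG2, ADA and GDA were. The part of these epithelial transcripts in the result was not tested. The summed level of 16 enterocyte markers was 1137, 6502, 6878 and 1936 FPKM in LS libraries, against 5824, 1412, 3196 and 3213 FPKM in MG libraries and 1302 to 5143 FPKM in CG libraries. No marker was at 0 in all libraries. LS1, LS4 and MG2 were the libraries of the 2 diets poorest in these transcripts. The median log2 fold change of the markers was 0.30, and −0.05 with LS2 and LS3 averaged. SI, sucrase-isomaltase, an enzyme of the brush border that digests sugars, stood at 115, 352, 380.2 and 149 FPKM with lactulose, against 183, 73.3, 125 and 119.7 FPKM with high protein (log2 fold change 0.92 ± 0.50, 0.65 averaged).

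Nutrient absorption followed the same libraries. Of 24 genes of peptide and amino acid absorption, 19 were positive with a median of 0.39, which was 0.14 with LS2 and LS3 averaged, and 0 were higher at an unadjusted p under 0.05. SLC15A1, the transporter that takes up di- and tripeptides, stood at 64.4, 523, 538 and 145 FPKM with lactulose, against 641, 167, 399.5 and 262 FPKM with high protein. SLC1A1, a glutamate transporter, stood at 91.1, 466, 517 and 104 FPKM with lactulose, against 146, 62.3, 80.1 and 170.3 FPKM with high protein. LS2 and LS3 were high in both, and LS1 and LS4 were low (log2 fold changes −0.27 ± 0.68 and 1.32 ± 0.64, −0.65 and 0.93 averaged). SLC38A1, a glutamine transporter, was highest in LS1 at 10.3 FPKM and overlapped between the diets (log2 fold change 0.36 ± 0.20).

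Sugar uptake had a median of 0.18 over 18 genes (0.09 averaged), with 0 at an unadjusted p under 0.05. SLC5A1, the sodium-coupled glucose and galactose transporter, stood at 18.2, 123, 135 and 29.6 FPKM in LS libraries, against 92.7, 13.1, 47 and 54.6 FPKM in MG libraries and 69, 52.1, 10.4 and 54.8 FPKM in CG libraries. LS2 and LS3 exceeded all other libraries, and LS1 and LS4 were among the lower ones (log2 fold change 0.50 ± 0.78, 0.11 averaged; edgeR adjusted p = 0.954). The brush border list, 16 of 18 positive with a median of 0.27, had 10 positive and a median of 0.07 with LS2 and LS3 averaged. Its motors MYO7B and MYO1A had log2 fold changes of 0.56 ± 0.30 and 0.58 ± 0.43, and of 0.41 and 0.34 averaged.

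**Figure D5:**
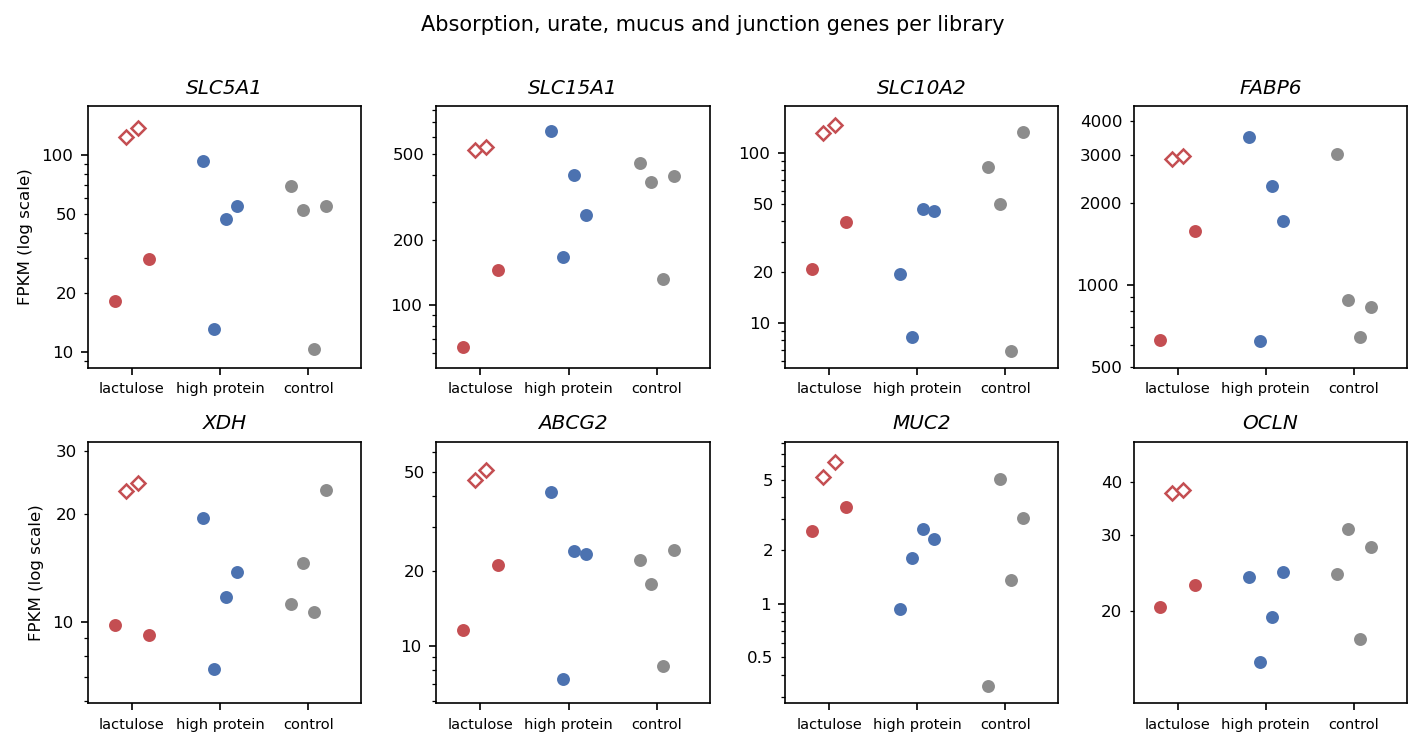
FPKM (log axes, scaled per panel) of 8 absorption, urate, mucus and junction genes in each library of the lactulose (red), high protein (blue) and control (grey) groups, with LS2 and LS3 as open diamonds. The open diamonds lie at or near the top of every panel, while LS1 and LS4 lie within the high protein range or below it, except that LS4 lies above it for MUC2.

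Bile acid genes, a main task of the ileum, were positive in 12 of 14 cases (median 0.27, 0.16 averaged). SLC10A2, which takes bile acids up, stood at 20.9, 132, 146 and 39.5 FPKM with lactulose, against 19.6, 8.35, 47.1 and 45.8 FPKM with high protein. FABP6, which binds them inside the cell, stood at 629.8, 2889.9, 2983 and 1572 FPKM with lactulose, against 3490.5, 621, 2307 and 1723 FPKM with high protein. SLC51A, which passes them on to the blood, stood at 17.4, 36.3, 36.3 and 18.6 FPKM with lactulose, against 34.9, 10.9, 19.4 and 29 FPKM with high protein. LS2 and LS3 were the high lactulose libraries in all 3, and the diets overlapped (log2 fold changes 1.41 ± 0.86, −0.09 ± 0.71 and 0.13 ± 0.41, and 1.04, −0.35 and −0.08 averaged). NR1H4, the bile acid receptor FXR, averaged 36.1 ± 2.68 FPKM with lactulose and 31.8 ± 8.2 FPKM with high protein (SD, n = 4 each). ABCB11, a bile salt pump at home in the liver, was the 1 member at an unadjusted p under 0.05. It stood at 0.121, 0.545, 0.686 and 0.0569 FPKM with lactulose, against 0.0406, 0.083, 0.088 and 0.0697 FPKM with high protein, high in LS2 and LS3 alone and below 1 FPKM everywhere (log2 fold change 2.24 ± 0.68).

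Genes for the uptake and sensing of fermentation products were level between the diets (12 of 23 positive, median 0.01), with 1 lower and 0 higher at an unadjusted p under 0.05. SLC16A1, the carrier of lactate and butyrate, stood at 26.7, 21.7, 21.7 and 21.1 FPKM with lactulose, against 21, 20.1, 18.6 and 20.9 FPKM with high protein. The values did not overlap on FPKM but nearly touched, and the log2 fold change was 0.08 ± 0.17 (edgeR adjusted p = 0.970). SLC5A8, the sodium-coupled carrier of short-chain fatty acids, was at or under 0.414 FPKM in both diets. EMB, a partner protein of monocarboxylate carriers, was the 1 lower gene, at 12.6, 11.2, 11.1 and 13.3 FPKM with lactulose, against 15.3, 33.4, 17.3 and 13 FPKM with high protein, where MG2 was the high library (log2 fold change −0.78 ± 0.22, and −0.48 without MG2). GPR183, an oxysterol receptor of immune cells, overlapped (log2 fold change −0.26 ± 0.14). FFAR2, a receptor for short-chain fatty acids, was not among the names of the table and was not analysed here.

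Of 31 junction genes, 22 were positive (median 0.15, 0.09 averaged). TJP3, a scaffold of tight junctions, was the 1 member at an unadjusted p under 0.05, at 15.8, 22.9, 23.8 and 20.7 FPKM with lactulose, against 14, 10.1, 12.5 and 16.3 FPKM with high protein (log2 fold change 0.57 ± 0.24). With LS2 and LS3 averaged 0 of the 31 were at that threshold. OCLN, the membrane protein occludin, stood at 20.4, 37.7, 38.2 and 22.9 FPKM with lactulose, against 24, 15.2, 19.4 and 24.6 FPKM with high protein, with only LS2 and LS3 above the high protein range (log2 fold change 0.45 ± 0.30, 0.28 averaged). CLDN1 averaged 13.6 ± 3.38 FPKM with lactulose and 10.1 ± 2.12 FPKM with high protein. The scaffolds TJP1 and PARD3 and the adherens junction protein CDH1 overlapped as well, with log2 fold changes of 0.13 ± 0.16, 0.23 ± 0.12 and 0.39 ± 0.25. For OCLN, CLDN1 and TJP1 edgeR's adjusted p was 0.872, 0.899 and 0.934 in that order.

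Mucus genes had a median of 0.11 over 19 (0.12 averaged). MUC2, the main secreted mucin, stood at 2.57, 5.19, 6.29 and 3.51 FPKM in LS libraries, against 0.936, 1.81, 2.64 and 2.31 FPKM in MG libraries and 0.344, 5.05, 1.37 and 3.03 FPKM in CG libraries. LS1 lay just under the highest high protein value and the other lactulose libraries above it, while the controls spanned almost the whole range (log2 fold change 1.12 ± 0.60, 0.93 averaged; edgeR adjusted p = 0.859). SPDEF, the transcription factor of goblet cells, stood at 25.1, 29.7, 23.9 and 34 FPKM with lactulose, against 16.3, 17.9, 22.3 and 19.3 FPKM with high protein, without overlap on FPKM (log2 fold change 0.48 ± 0.19, 0.47 averaged). On CPM scaled by TMM the diets overlapped in SPDEF. KLF4, a differentiation factor of the upper villus, stood at 4.49, 10.4, 9.44 and 5.82 FPKM with lactulose, against 3.84, 2.93, 4.87 and 4.65 FPKM with high protein, and was highest in LS2 and LS3 (log2 fold change 0.81 ± 0.41).

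Electrolyte and water transport was positive in 22 of 29 genes (median 0.27, 0.24 averaged). At an unadjusted p under 0.05, 4 were higher and 1 lower, against 2.31% and 3.33% of all genes. With LS2 and LS3 averaged 2 were higher and 0 lower, against 1.47% and 1.81% of all genes. BEST4, an anion channel of a rare absorptive cell in human gut, stood at 3.42, 3.79, 3.64 and 2.0 FPKM with lactulose, against 1.17, 0.848, 0.846 and 1.96 FPKM with high protein. The ranges met at LS4 and MG4 without overlap (log2 fold change 1.33 ± 0.48, 1.22 averaged). AQP5, a water channel, stood at 64.5, 38.6, 35.4 and 52.4 FPKM with lactulose, against 28.2, 50.2, 27 and 29.4 FPKM with high protein. MG2 was the 1 high protein library in the lactulose range (log2 fold change 0.41 ± 0.18). HSD11B2, which shields the mineralocorticoid receptor from glucocorticoids, and CA9, a carbonic anhydrase, were highest in LS2 and LS3 (log2 fold changes 0.70 ± 0.32 and 0.75 ± 0.32, 0.51 and 0.58 averaged).

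The stem cell and Wnt list of the crypt, where the epithelium renews itself, was positive in 22 of 29 genes (median 0.21). RNF43, which removes Wnt receptors from the surface, ranged from 4.45 to 6.45 FPKM with lactulose and from 3.37 to 4.21 FPKM with high protein. PROM1, a membrane protein of progenitors, stood at 13, 4.26, 4.22 and 6.42 FPKM with lactulose, against 1.91, 3.33, 4.03 and 4.18 FPKM with high protein, with LS1 highest. OLFM4, a secreted protein of crypt cells, went the other way, at 74.2, 81.8, 87.2 and 28.5 FPKM with lactulose, against 105, 120.0, 135 and 87.6 FPKM with high protein. LS and MG did not overlap in any of the 3 on FPKM, though LS3 and MG4 of OLFM4 were nearly equal (log2 fold changes 0.46 ± 0.17, 0.91 ± 0.37 and −0.80 ± 0.36). On CPM scaled by TMM the diets overlapped in RNF43 and PROM1.

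Enteroendocrine genes, of the hormone-making cells of the epithelium, were positive in 22 of 23 cases (median 0.38, 0.32 averaged). At an unadjusted p under 0.05, 3 were higher, against 2.31% of all genes. With LS2 and LS3 averaged 1 was higher, against 1.47% of all genes. SCG2, a granule protein, stood at 22, 18.4, 18.4 and 12.7 FPKM with lactulose, against 9.77, 11.5, 10.3 and 15.2 FPKM with high protein. SCG3, another granule protein, stood at 14.4, 11.5, 12.5 and 10.5 FPKM with lactulose, against 6.45, 11, 5.58 and 10.1 FPKM with high protein. In SCG2 only LS4 lay in the high protein range, and in SCG3 only LS4 and MG2 crossed, while ISL1, a transcription factor of these cells, was under 1 FPKM (log2 fold changes 0.52 ± 0.19, 0.49 ± 0.22 and 1.03 ± 0.46). The summed level was 461 to 643 FPKM with lactulose and 305 to 509 FPKM with high protein. Of the peptide genes on the list, GCG, NTS and CCK had log2 fold changes of 0.07, 0.10 and 0.17. TAC1, SST and VIP had 0.26, 0.31 and 0.50, and VIP is also on the list of neuron and glia genes.

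Neuron and glia genes were positive in 23 of 26 cases (median 0.39, 0.43 averaged), with SLC5A7, the choline transporter of cholinergic neurons, at no more than 0.419 FPKM and ERBB3, a neuregulin receptor of glia that the epithelium also makes, at 14.1 to 20.1 FPKM with lactulose and 10.001 to 13.8 FPKM with high protein (log2 fold changes 1.29 ± 0.57 and 0.41 ± 0.20). Their summed level was 106 to 195 FPKM with lactulose and 97 to 142 FPKM with high protein. Smooth muscle genes were high in LS1, LS4 and MG4, with summed levels of 10333, 4290.3, 3838 and 8171 FPKM in LS libraries, against 4480.3, 5532, 4797 and 8187 FPKM in MG libraries, and their median log2 fold change was 0.08 (0.21 averaged). The lactulose group thus holds 2 libraries rich in muscle and poor in enterocyte transcripts and 2 that are the reverse, and the part of that makeup in the results was not tested. Fibroblast and matrix genes had a median of 0.13, endothelial genes of −0.09, and lists of red blood cells, thrombocytes, hepatocytes, adipocytes, skeletal muscle and pancreas had 8, 8, 5, 6, 5 and 7 tested members with 0 higher and 0 lower at an unadjusted p under 0.05 except CEL on the pancreas list. A list of genes chosen for the sex chromosomes Z and W had a median of 0.05, but its level differed between libraries within both groups. Their median log2 CPM, centred on the mean of the 12 libraries, was −0.30, 0.29, 0.31 and −0.36 in LS1 to LS4, against −0.29, 0.32, −0.28 and 0.31 in MG1 to MG4 and 0.05, 0.25, −0.25 and −0.19 in CG1 to CG4. LS2, LS3, MG2 and MG4 were thus high and LS1, LS4, MG1 and MG3 low. LOC106036306 and LOC125179692 divided the 12 libraries in the same way. Both were high in LS1, LS4, MG1, MG3, CG3 and CG4, where this list was low. The part of this split in the results was not tested.

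A few genes of the upper intestine stood apart in 1 high protein library. GATA4, a transcription factor of the upper small intestine, stood at 0, 0, 0.0765 and 0.0395 FPKM with lactulose, against 4.07, 0, 0.013 and 0.070 FPKM with high protein and 0 in all 4 controls. RBP2, the retinol-binding protein of the upper intestine, stood at 0.688, 1.19, 1.05 and 1.55 FPKM with lactulose, against 45.3, 0.754, 4.01 and 2.26 FPKM with high protein. LCT, lactase, which splits milk sugar in mammals, stood at 0.346, 0.809, 0.831 and 0.395 FPKM with lactulose, against 6.91, 0.176, 0.555 and 0.447 FPKM with high protein. MG1 alone carried all 3. AQP8, a water channel, stood at 1.31, 2.65, 2.81 and 3.55 FPKM with lactulose, against 70.1, 0.313, 1.67 and 2.41 FPKM with high protein, again high in MG1 alone (log2 fold changes −5.18 ± 2.12, −3.64 ± 1.11, −1.84 ± 0.93 and −2.94 ± 1.33 in the order named). Without MG1 they were −0.03, −1.19, 0.51 and 0.70 in the same order. PDX1, another factor of the upper gut, was at or under 0.267 FPKM, higher in all lactulose libraries by little (log2 fold change 1.13 ± 0.46). Of 17 tested genes that mark the position along the gut, 11 were positive (median 0.28).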

How the data were processed

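Poly(A) RNA of goose ileum was sequenced in 12 libraries, 4 per diet, with a dUTP strand-marking kit, per the labels' protocols. Tools listed without role or order, per the submitters' processing notes, are HISAT2 2.2.1, cutadapt 1.9, edgeR, DESeq2 and StringTie 2.1.6. Neither genome build, counting tool nor strand setting is given in the sources used here, so overlapping and antisense genes may share reads. The deposited table, made by the authors, holds for 19836 genes a raw count and an FPKM value per library, named per the file headers. Totals ranged from 38706155 to 48251825, and low values stand mostly in steps of 4 (5063 values at 4, 1799 at 3 and 1526 at 5), so about 4 counts make up 1 read pair and counting error is larger than the counts alone show.

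Counts were tested with edgeR 4.0.16 (R 4.3.3), with TMM scaling, filterByExpr at a count minimum of 10 and a quasi-likelihood test over all 12 libraries with 1 coefficient per diet, and p-values were adjusted by Benjamini-Hochberg over the 16075 genes that passed. The common biological coefficient of variation was 0.349 with 9 residual degrees of freedom. DESeq2 1.42.0 and limma 3.58.1 were alternatives, as were LS2 and LS3 averaged, the 8 libraries alone, other filters, and each library left out in turn. Symbols are those of the file and, for 687 genes named LOC, those of the RefSeq table. Of the gene IDs, 17685 matched that table and 2151 did not. No column of other samples was present.

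The members and the 44 gene lists were chosen with earlier results of these data known. Named are the genes that edgeR or DESeq2 called and that have a symbol, the 10 per direction of smallest p among genes with a mean FPKM of at least 1 whose groups do not overlap, 2 to 6 members of smallest p per list, and 32 tested genes of 33 chosen for the study's questions. Of the 160 genes so named, 138 are reported. The other 22, not reported here, come mostly from marker lists of cell types outside the gut lining.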

Additional observations from a re-analysis of the deposited data

Results flagged for a closer look

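Of 414 groups of 4 libraries searched, over the FPKM of 138 genes in 3 diets, 33 held a highest or lowest library far from the other 3. Chance would flag about 1 in 20 groups if values were independent, and 33 of 414 is above that rate. The genes vary together and were partly chosen from these data, so the number gives no pattern by itself. None fell on LS2, LS3 or CG2. A flag needs a library far from the other 3 of its group, and LS2 and LS3 are nearly alike. The search is thus hardly able to flag either of them, and their lack of flags says nothing about them.

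In the lactulose group LS4 stood above the others in GALNT8 (16.7 FPKM), RPS27A (1576 FPKM), EIF3H (573 FPKM) and CD3D (117 FPKM). LS1 stood above the others in CD4 (10.4 FPKM), GMPS (24.8 FPKM), ASNS (11.6 FPKM), SLC38A1 (10.3 FPKM) and SLC16A1 (26.7 FPKM).

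In the high protein group MG1 stood above the others in NPC1L1 (7.72 FPKM), LCT (6.91 FPKM), AQP8 (70.1 FPKM), GATA4 (4.07 FPKM), RBP2 (45.3 FPKM) and CAT (124 FPKM). MG3 was highest in RPL5 (3901 FPKM) and EEF1A1 (21361 FPKM), MG4 in DUSP1 (45.6 FPKM) and MG2 in AQP5 (50.2 FPKM).

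In the control group CG1 stood above the others in NDUFV2 (276 FPKM), KYNU (1.87 FPKM) and FABP6 (3013 FPKM) and below them in ADSS2 (22.7 FPKM), INSIG2 (21.0 FPKM), AQP5 (26.4 FPKM) and NFKB1 (14.0 FPKM). CG3 stood above the others in NMRAL1 (7.49 FPKM), ASNS (18.7 FPKM) and CCNB2 (55.0 FPKM) and below them in KLF4 (2.63 FPKM). CG4 stood above the others in NOS2 (119 FPKM), RBP2 (5.18 FPKM) and LCT (0.438 FPKM).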

How the results depend on the processing

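Of 29 alternatives, 26 were planned and 3 were chosen after seeing the data. edgeR and limma called 0 genes except that limma voom with sample weights called 123 (3955 at an unadjusted p under 0.05, with the largest weights on LS2 and LS3) and that CEL was called without CG4. DESeq2 called 18, and in the alternatives added later 9 with LS2 and LS3 averaged, 267 on the 8 libraries (1950 at an unadjusted p under 0.05) and 31 with both. Leaving out 1 library gave 0 to 1 called genes and 520 to 1755 at an unadjusted p under 0.05, against 908 with all. The count was 520 without LS2, 591 without LS3, 576 without MG3 and 1755 without CG1. It was 534 with LS2 and LS3 averaged and 1633 on the 8 libraries. The cause was not tested.

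LS and MG share only the numbers 3 (LS2 and MG2, correlation of deviations −0.33) and 5 (LS3 and MG4, 0.31), so the numbers do not pair the libraries. With a replicate block 1517 genes had an unadjusted p under 0.05, 3 residual degrees of freedom were left, and 9 log2 fold changes turned positive, which were NPC1L1 (0.32), LCT (1.06), AQP8 (1.99), GATA4 (0.11), SLC15A1 (1.06), SOD1 (0.094), CAT (0.30), NFE2L2 (0.044) and FABP6 (1.02).

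Of 138 genes, 123 kept their sign under every alternative that gave a value, and 48 were called by at least 1. Many of these genes were named for a small p or for groups without overlap in the same libraries. The alternatives refit those libraries, so kept signs and calls are no independent support. The same counts over all genes were not taken. Sign changes were SLC15A1 (0.22), CAT (0.047) and FABP6 (0.35) with sample weights, NFE2L2 (0.031) in limma on FPKM, and SLC2A9 on the 8 libraries (−0.0022) and with no filter (−0.0027). With LS2 and LS3 averaged SLC2A9 was −0.16 (DESeq2 −0.15) and SLC51A −0.075 (DESeq2 −0.060 on 12 libraries and −0.058 on 8). Leaving out 1 library gave both signs for ADA (−0.032 to 0.64), AQP8 (−3.35 to 0.70), CAT (−0.28 to 0.023), FABP6 (−0.40 to 0.30), IL6 (−0.072 to 0.82), LCT (−2.23 to 0.51), NPC1L1 (−1.48 to 0.20), NR1H4 (−0.038 to 0.23), SLC15A1 (−0.68 to 0.14), SLC2A9 (−0.20 to 0.17), SLC51A (−0.13 to 0.38) and XDH (−0.0064 to 0.54). Of 1276 list medians under alternatives, 38 moved by more than the SD of the list's level between libraries. That SD is wide where libraries of the same diet differ, as for the enterocyte markers, so such lists need a large shift to pass it. The median of the enterocyte markers changed sign with LS2 and LS3 averaged and did not pass it. For such lists the count is no measure of stability.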
